A study of Homo sapiens with 3 samples.

Results

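The heterogeneous nuclear ribonucleoproteins (hnRNPs) are abundant nuclear proteins that coat nascent RNA and act in its splicing, export, stability and translation. Most of them bind RNA through RNA recognition motifs, and several also bind single-stranded or quadruplex DNA. HNRNPA1 is known to unfold G-quadruplexes (G4s), and the related HNRNPF and HNRNPH1 bind runs of G in RNA. The 10 genes described here were chosen by name, namely HNRNPA0, HNRNPA1, HNRNPA2B1, HNRNPA3, HNRNPC, HNRNPD, HNRNPF, HNRNPH1, HNRNPM and HNRNPU, and all 10 were found among the 61193 genes to which the deposited transcripts could be joined. The rule uses names alone and no measured value, but the list of names was set with earlier results of these data known.

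RNA-seq was performed on HEK293T, an established cell line derived from human embryonic kidney, in 3 replicates of a single condition. The cells were untreated, were collected 24 h after seeding and carried no allele or agent that differed between the samples, so that no groups were compared and no p-value is given. The libraries were made by QuantSeq, which primes at the poly(A) tail and reads the 3′ end of each transcript, and they held 6262175 to 8521624 counts. Levels are given as counts, as counts per 1000000 of the library (CPM), or as transcripts per 1000000 (TPM), in which the count is divided by transcript length. As reads come from the 3′ end, their number need not grow with transcript length, so an order in TPM can reflect the lengths. A count of 0 allows up to 3 counts, which equals 0.427, 0.479 and 0.352 CPM in replicates 1, 2 and 3. This limit covers counting error only, as no molecular identifiers are described and reads need not be separate molecules. Mitochondrial genes took 5.70% to 9.59% of the counts in replicates 1 and 2 and 25.8% in replicate 3, and since CPM and TPM are shares of a library, this leaves less of either for nuclear genes there. Of 6 genes taken as markers of HEK293T, 3 reached a mean of 1 TPM, with 40.8 TPM for LIN28B, 8.96 for PAX2 and 1.35 for KRT8, while VIM had 0 to 6 counts per replicate and KRT18 and NEFM had 0. All 7 markers of blood, liver, pancreas and fat cells had 0 counts in every replicate.

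The hnRNP genes fell into 3 ranges. HNRNPA3, HNRNPA0, HNRNPD and HNRNPC were measured at 170 to 314 TPM, HNRNPA1 and HNRNPA2B1 at 5.41 to 8.98 TPM, and HNRNPH1, HNRNPU, HNRNPF and HNRNPM at 0 to 0.772 TPM (means of 3 replicates). A gene was called expressed from a mean of 1 TPM upwards, and 6 of the 10 were expressed, beside 38.2% of all protein-coding genes. The study sorted expressed genes by quartiles, and by this rule 4 of the 10 were in the high category (at or above 24.1 TPM), beside 12.5% of all protein-coding genes. Of the 6 expressed genes alone these were 4, beside 32.8% of the expressed protein-coding genes. Their categories were the same in every replicate, apart from HNRNPH1, which was without expression in replicates 1 and 3 and low in replicate 2. With a mean of 1 CPM as the threshold instead, HNRNPU, at 1.35 CPM, was also expressed, in the low category. The categories of the other genes were unchanged, and the share over all genes is not given for this threshold. Together the 10 genes held 1176, 1228 and 672 TPM in replicates 1, 2 and 3, or 1025 ± 307 TPM (SD, n = 3). Replicate 3 was the lowest also when mitochondrial genes were left out, with 1205 TPM against 1523 and 1451. HNRNPA0, HNRNPA3 and HNRNPD carried 89.0% of all counts of the family.

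**Figure D1:**
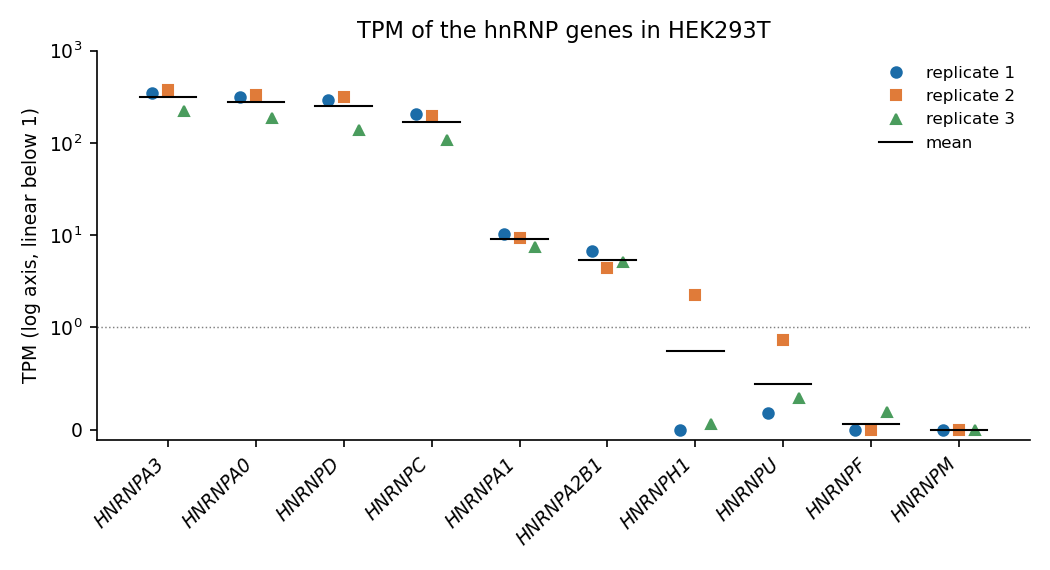
TPM of the 10 hnRNP genes in each of the 3 HEK293T replicates, on an axis that is logarithmic above 1 TPM and linear below it. Points are replicates, bars are means and the dotted line marks 1 TPM. HNRNPA3, HNRNPA0, HNRNPD and HNRNPC lie above 100 TPM in every replicate, HNRNPA1 and HNRNPA2B1 between 4.40 and 10.2 TPM, and the other 4 genes at or below 2.26 TPM.

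The A/B group (HNRNPA0, HNRNPA1, HNRNPA2B1 and HNRNPA3) shares a pair of RNA recognition motifs followed by a glycine-rich tail. HNRNPA3 (ENSG00000170144), at chr2:177212694-177223959 (GRCh38, plus strand), had 8972, 8111 and 8481 counts in replicates 1, 2 and 3. These gave 348, 372 and 224 TPM, or 314 ± 79.6 TPM (SD, n = 3), the highest mean TPM of the 10. HNRNPA0 (ENSG00000177733), a gene with a single listed transcript at chr5:137745651-137754363 (minus strand) that is known as a target of stress kinases, had 12397, 10963 and 10934 counts. Its TPM was 314, 328 and 188, or 277 ± 77.0 (SD, n = 3). HNRNPA3 was above HNRNPA0 in TPM in every replicate, with a ratio of means of 1.14. Both SDs include the drop in replicate 3 that the genes share, so they do not measure the spread of this difference. Without division by length the order of these genes turned in every replicate, with 1600 ± 275 CPM for HNRNPA0 and 1190 ± 169 CPM for HNRNPA3 (SD, n = 3), since the counted HNRNPA0 transcript has 8713 bases and that of HNRNPA3 5688.

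HNRNPA1, a well-studied splicing repressor, and HNRNPA2B1, which also binds sorting signals in RNA, were counted far lower. HNRNPA1 (ENSG00000135486), at chr12:54280193-54287088 (plus strand), had 190, 147 and 204 counts. It had 10.2, 9.30 and 7.47 TPM, or 8.98 ± 1.38 TPM (SD, n = 3). HNRNPA2B1 (ENSG00000122566), at chr7:26171151-26201529 (minus strand), had 101, 59 and 81 counts and 6.76, 4.40 and 5.08 TPM, or 5.41 ± 1.21 TPM (SD, n = 3). Their TPM ranges over the replicates did not overlap, although they lie close, since the lowest value of HNRNPA1 was 7.47 TPM and the highest of HNRNPA2B1 was 6.76. Both genes were in the medium category in every replicate, and HNRNPC, the next gene above them, was 18.9 times HNRNPA1 in mean TPM. The canonical transcripts of HNRNPA1 and HNRNPA2B1 had at most 1 count in a replicate. By GENCODE v44 models, the last 300 exonic bases of each lie in other listed transcripts too. The same holds for HNRNPC, whose canonical transcript had 0 counts. Whether this lowered any count was not tested. The low counts of HNRNPA1 and HNRNPA2B1 therefore do not show low expression.

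HNRNPC encodes the C proteins, which form tetramers on long RNA and bind runs of U. The gene (ENSG00000092199) lies at chr14:21209136-21269494 (minus strand) and had 3053, 2493 and 2387 counts, which gave 204, 197 and 108 TPM, or 170 ± 53.2 TPM (SD, n = 3). HNRNPD, also called AUF1, binds AU-rich elements and is known for its part in mRNA decay. The gene (ENSG00000138668) lies at chr4:82352498-82374503 (minus strand) and had 4099, 3691 and 2846 counts. Its TPM was 294, 314 and 139, or 249 ± 95.8 (SD, n = 3), and the range of HNRNPD overlapped that of HNRNPC as well as that of HNRNPA0. Within each replicate, however, the order was the same, with HNRNPA3 above HNRNPA0, HNRNPD and HNRNPC in turn. An exact permutation test of 3 values against 3 cannot go below a two-sided p of 0.1, so no test of these differences is given.

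HNRNPF and HNRNPH1 belong to the F/H group, whose quasi-RNA recognition motifs bind G-tracts. HNRNPF (ENSG00000169813), at chr10:43385617-43409186 (minus strand), had 0, 0 and 3 counts, and its canonical transcript in GENCODE v44 is not among the listed ones. HNRNPH1 (ENSG00000169045), at chr5:179614178-179634784 (minus strand), had 0, 7 and 2 counts. HNRNPM, which binds GU-rich RNA and acts on splice site choice, (ENSG00000099783) is at chr19:8444767-8489114 (plus strand) and had 0 counts in every replicate. HNRNPU, or scaffold attachment factor A, which binds chromatin as well as RNA, (ENSG00000153187) is at chr1:244840638-244864560 (minus strand) and had 3, 16 and 9 counts. HNRNPF and HNRNPM were thus at or under 3 counts in every replicate, as were 50.9% of all protein-coding genes. Neighbours in the order of these 4 genes overlapped in TPM, and all 4 lay below HNRNPA2B1 in every replicate. Their expression was not detected, or hardly so, in the deposited counts at this depth, which does not show that they were silent.

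The files hold a row for each transcript, and the counts of an hnRNP gene stood almost entirely on 1 of them. Of 175 listed transcripts of the 10 genes, 16 had a count in any replicate. The share over all listed transcripts is not given here, so this number is not read as particular to the family. In all 5 genes that reached 50 counts in every replicate and have more than 1 listed transcript, over 95% of the counts were on a single transcript, beside 74.2% of the 4105 protein-coding genes of this kind. For HNRNPA3, 1 of 5 listed transcripts (HNRNPA3-202) held every count, and for HNRNPC, 1 of 32 (HNRNPC-201) held all but 1 count. HNRNPD-201 held 99.7% of the HNRNPD counts, HNRNPA1-203 held 99.8% of those of HNRNPA1 and HNRNPA2B1-208 held 97.1% of those of HNRNPA2B1. All of these leading transcripts are annotated as protein coding. Only HNRNPD-201 and the single HNRNPA0 transcript are the canonical transcripts of their genes.

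Transcripts with retained introns are a known product of hnRNP genes, several of which regulate their own splicing. They were counted low where the gene was well covered. HNRNPD-210, which retains an intron, had 13, 7 and 15 counts against 4086, 3684 and 2831 for HNRNPD-201. However, the last 300 exonic bases of HNRNPD-210 all lie in other listed transcripts too, whereas those of HNRNPD-201 are all its own. The counts of this pair therefore do not show how common intron retention was. In HNRNPU, in contrast, all 28 counts of the 3 replicates were on transcripts with a retained intron. HNRNPU-230 had 1, 8 and 4 counts, HNRNPU-207 had 0, 8 and 2, and HNRNPU-220 had 2, 0 and 3. In this order they have 460, 760 and 316 exonic bases that lie in no other listed transcript. No coding transcript of HNRNPU has more than 156 such bases, so these counts do not compare retained-intron with coding transcripts. The 9 counts of HNRNPH1 were split between HNRNPH1-227, a retained intron with 5, and HNRNPH1-241, a coding transcript with 4, all in replicate 2. No transcript of the 10 genes that is annotated as a target of nonsense-mediated decay had a count. None of them has more than 4 exonic bases of its own by GENCODE v44 models, so this does not show that they were absent. In all, 7 of the 9 genes with any count had over 50% of their counts on coding transcripts, beside 70.7% of protein-coding genes with any count, and HNRNPF was among the 7 with only 3 counts.

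How much sequence a transcript shares with no other depended on which models were compared. The models of 143 of the 175 transcripts are the same in the deposited files and in GENCODE v44, by version and length, and the other 32 have 3′ ends that are not known for the deposited version. Among the unchanged models alone, which were singled out after the values were seen, the following held. Each of the 14 unchanged transcripts with counts had exonic bases of its own on its strand, with a median of 1381 bases. Of the 129 unchanged transcripts without counts, 39 had any, and the median was 0. HNRNPA3-202 had 4093 bases of its own, HNRNPA2B1-208 had 2243, HNRNPC-201 had 1447, HNRNPA1-203 had 1430 and HNRNPD-201 had 1331. With the GENCODE v44 models of all 175 listed transcripts, the same transcripts had 0, 1726, 60, 511 and 1331 bases of their own. By these models, 15 of the 16 counted transcripts had bases of their own, with a median of 486, and HNRNPA3-202 was the exception, while 44 of the 159 transcripts without counts had any, with a median of 0. Own sequence was not always counted, however, as HNRNPA2B1-204 with a retained intron had 2959 such bases by unchanged models, 0 by all models, and 0 counts. HNRNPM-216, with no defined coding sequence, had 1331 by either and 0 counts. In both transcripts, none of the last 300 exonic bases, nearest the 3′ end that QuantSeq reads, were their own by either set of models. They therefore do not show whether own sequence at the 3′ end goes uncounted.

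**Figure D2:**
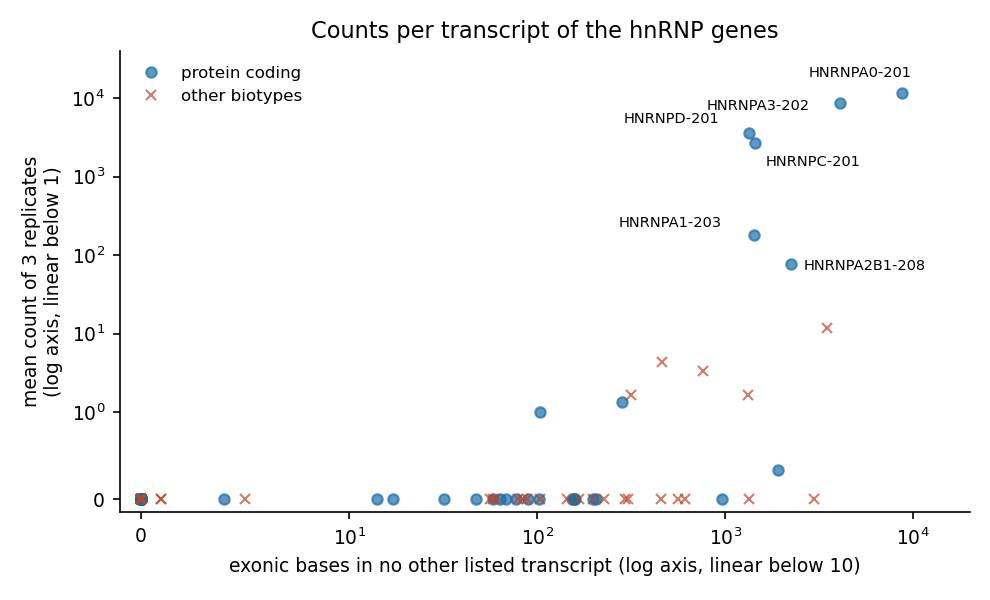
Mean count of 3 replicates for each of the 143 hnRNP transcripts with unchanged models, against the number of its exonic bases that lie in no other listed transcript with an unchanged model on the same strand (both axes logarithmic, and linear near 0). Circles are protein-coding transcripts and crosses other biotypes. The 6 labelled transcripts, with 1331 to 8713 bases of their own, carry nearly all counts of the family, and most transcripts lie at 0 on both axes.

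Since QuantSeq reads lie near the poly(A) tail, the last 300 exonic bases were also examined. In HNRNPA0, HNRNPA3, HNRNPC, HNRNPD and HNRNPA2B1, all 300 bases of the leading transcript lay in no other unchanged transcript, and in HNRNPA1 165 of them did. With all listed models these were still 300 in HNRNPA0, HNRNPD and HNRNPA2B1, but 0 in HNRNPA3, 11 in HNRNPC and 0 in HNRNPA1. In the other 4 genes, the unchanged coding transcript with the most had 102 bases in HNRNPM, 91 in HNRNPH1, and 0 in HNRNPF and HNRNPU. The 6 genes above 50% on this measure all had at least 50 counts in every replicate, and the 4 genes below it had at most 16. Among all protein-coding genes, 38.6% of 10474 genes with such a transcript reached 50 counts in every replicate, compared with 5.92% of 7939 genes without one. With all listed models, only HNRNPA0, HNRNPD and HNRNPA2B1 were above 50%, and 3 of the 7 genes below it, HNRNPA3, HNRNPC and HNRNPA1, also reached 50 counts in every replicate, so that the hnRNP genes were no longer split by this measure. The shares of all protein-coding genes were then 38.2% with and 6.69% without such a transcript. The threshold of 50% was set after the values of the hnRNP genes were seen, and the part of shared 3′ ends in the low counts was not tested. With the GENCODE v44 models for every listed transcript, the last 300 bases of the canonical transcript were shared throughout in 6 of the 9 genes whose canonical transcript is listed, beside 40.5% of protein-coding genes, and HNRNPC, HNRNPA1 and HNRNPA2B1 were among these 6 although all 3 were counted.

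hnRNP genes have given rise to many processed pseudogenes, copies of spliced mRNA inserted elsewhere in the genome. GENCODE names 105 of them after the 10 genes, 72 after HNRNPA1 alone, and 51 had a count in any replicate. Together they had 628, 548 and 723 counts, or 2.35% ± 0.403 (SD, n = 3) of the counts of genes and copies. In TPM the share was 15.9% ± 0.996 (SD, n = 3), since the copies are short. The copies with the most counts were HNRNPA3P6, HNRNPUP1, HNRNPCP2, HNRNPA3P5 and HNRNPA1P54, and 9 of the 105 were above 3 counts in every replicate. Shares over all processed pseudogenes are not given here, so the numbers of counted copies are not read as particular to hnRNP genes.

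HNRNPUP1 had more counts than HNRNPU. It had 167, 144 and 90 counts in replicates 1, 2 and 3, where HNRNPU had 3, 16 and 9, so that the ranges do not overlap and the copy held 93.0% ± 4.52 (SD, n = 3) of the sum. Adding the TPM of the copy, which divides its counts by only 333 bases, would bring HNRNPU from 0.450 to 88.4 TPM. The canonical HNRNPU transcript has 6867 bases, so the same counts divided by that length would add far less. HNRNPUP1 is 333 bases long and lies at chr14:43300263-43300595. Over 328 aligned bases of the HNRNPU coding sequence it is 97.0% identical, and 33.7% of its 31-base words occur in HNRNPU transcripts. HNRNPA1 copies held 28.5% ± 1.64 (SD, n = 3) of the counts of HNRNPA1 and its copies, with 72, 56 and 89 counts over all 72 copies. Of these, HNRNPA1P54 had 21, 23 and 17 counts on a model of 9714 bases, of which only 1.63% of the words are shared with HNRNPA1. The shares were lower where the gene itself was well counted, with 3.52% ± 1.31 for HNRNPA3 and 4.01% ± 0.672 for HNRNPC (SD, n = 3). HNRNPA0 and HNRNPA2B1 have no named copy of this kind.

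How alike gene and copy are is shown by the first 60 bases without a gap in each alignment to the coding sequence of the gene, taken from the reference on the coding strand, with mismatches between the pair in capitals. The 2 pairs are shown because both copies are among the most counted and HNRNPUP1 exceeds its gene. The HNRNPC bases are chr14:21234134-21234193 (minus strand) and those of HNRNPCP2 chr2:189923336-189923395 (plus strand), and HNRNPUP1 is shown at chr14:43300282-43300341 (plus strand) beside bases 2162 to 2221 of the HNRNPU coding sequence, which span an exon junction.
HNRNPC: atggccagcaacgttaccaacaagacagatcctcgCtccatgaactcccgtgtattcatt
HNRNPCP2: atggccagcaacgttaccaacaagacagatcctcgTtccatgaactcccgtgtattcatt
HNRNPU: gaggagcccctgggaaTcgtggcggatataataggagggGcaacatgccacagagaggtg
HNRNPUP1: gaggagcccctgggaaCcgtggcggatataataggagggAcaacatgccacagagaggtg

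In these stretches HNRNPCP2 has 1 mismatch and HNRNPUP1 has 2. Over the whole alignment, identity was 98.9% for HNRNPCP2, which had 96, 106 and 88 counts. HNRNPA3P6, with 190, 139 and 332 counts, was 99.6% identical to the HNRNPA3 coding sequence over 999 bases and shared 85.5% of its 31-base words with HNRNPA3 transcripts. Reads of genes and of copies this alike are hard to assign, and how reads with several matches were treated is not given in the sources used here, so the counts of these copies are uncertain. Whether the counts on a copy came from the gene was not tested.

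**Figure D3:**
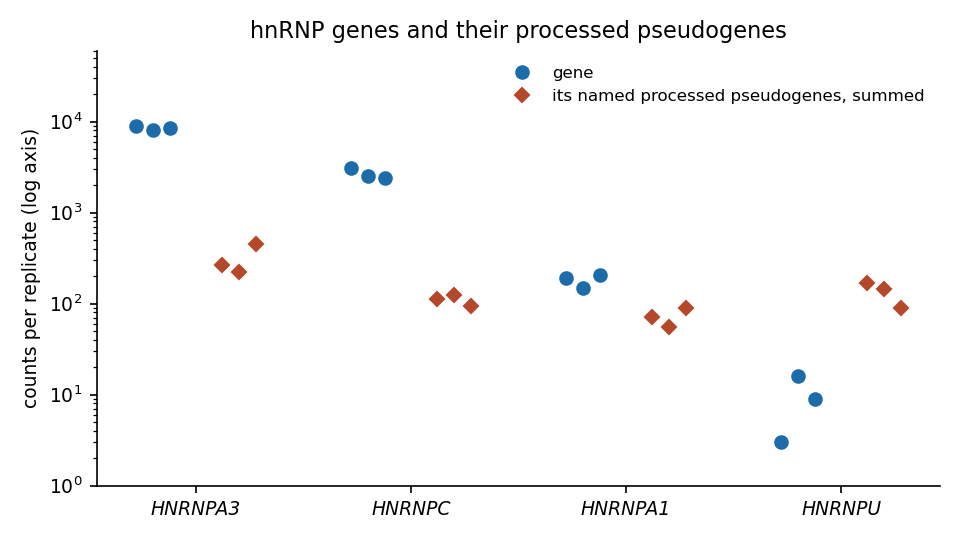
Counts in each of 3 replicates (log axis) for HNRNPA3, HNRNPC, HNRNPA1 and HNRNPU (circles) and for the processed pseudogenes named after each of them, summed (diamonds). The genes lie above their copies for HNRNPA3, HNRNPC and HNRNPA1, and HNRNPU, with 3 to 16 counts, lies below its copy, with 90 to 167.

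The spread between replicates was described by the coefficient of variation, beside the value that Poisson counting noise alone would give. The coefficient of variation of CPM was 14.2% for HNRNPA3, 17.2% for HNRNPA0, 21.8% for HNRNPC and 29.0% for HNRNPD, with Poisson values of 0.935% to 1.94%. The median over the 6 genes that reached 50 counts in every replicate was 19.5%, beside 15.7% over all 5678 genes of this kind. Relative to the counts outside the mitochondrial genome the medians were 12.6% and 13.6%, and with median-of-ratios size factors they were 16.5% and 14.6%, so that whether the family varied more than all genes depended on the scaling. Relative to nuclear counts HNRNPA3 varied by only 2.62% and HNRNPA0 by 6.07%. HNRNPD still varied by 18.7%, with 646, 625 and 450 counts per 1000000 nuclear counts, so that it was lower in replicate 3 than in the others on either scale. HNRNPA1 was steadier in CPM. Its variation was 7.87% on that scale, close to the Poisson value of 7.45%, and 13.0% relative to nuclear counts. HNRNPA2B1 varied by 25.6% and 23.0% on these scales, with a Poisson value of 11.2%.

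**Figure D4:**
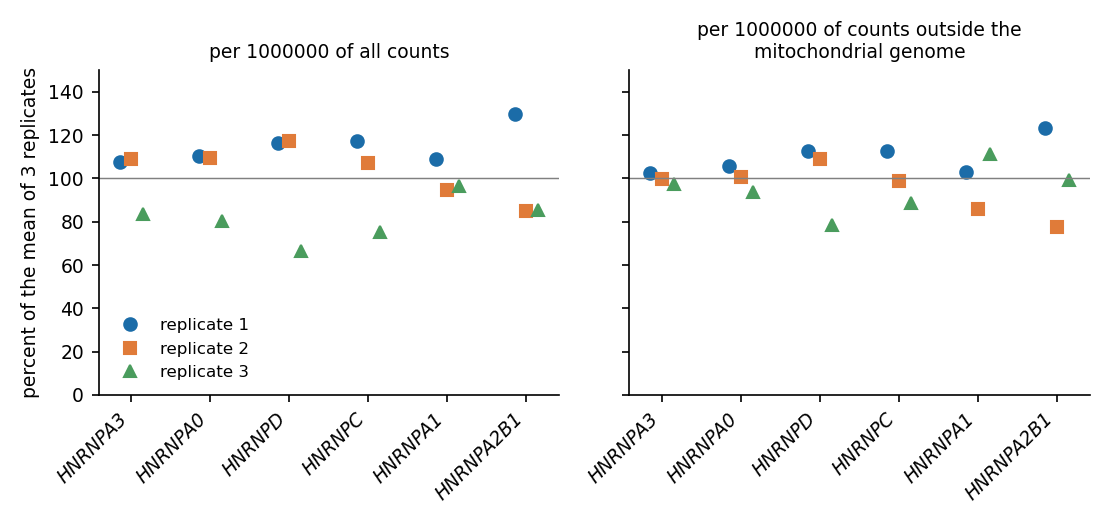
Level of 6 hnRNP genes in each of the 3 replicates as a percent of the mean of that gene, per 1000000 of all counts (left) and per 1000000 counts outside the mitochondrial genome (right). Replicate 3 is low for HNRNPA3, HNRNPA0, HNRNPD and HNRNPC on the left, and on the right HNRNPA3 varies by 2.62% whereas HNRNPD varies by 18.7%.

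Other genes of hnRNP name or kind were taken as a list of 19, which was set with earlier results of these data known. Of these, 14 were expressed and 5 were in the high category, beside 38.2% and 12.5% of all protein-coding genes. The median of the 19 was 3.04 TPM beside 7.20 TPM for the 10 genes, expressed or not. HNRNPH2, the paralog of HNRNPH1 and HNRNPF, has a single listed transcript and had 8862, 8253 and 7738 counts, or 764 ± 229 TPM (SD, n = 3), the highest TPM of all 29 genes. Without division by length its mean was below those of HNRNPA0 and HNRNPA3, with 1163 CPM against 1600 and 1190. In replicate 2, however, HNRNPH2 was above HNRNPA3, with 8253 counts against 8111. HNRNPUL2, a relative of HNRNPU with 2 listed transcripts, had 119 ± 30.8 TPM (SD, n = 3), and SYNCRIP, with 4, had 146 ± 38.9. HNRNPH1 and HNRNPU have 48 and 31 listed transcripts. HNRNPA1L2, a retrogene of HNRNPA1 that is annotated as protein coding, had 83, 95 and 109 counts and 14.4 ± 3.22 TPM (SD, n = 3). It was above HNRNPA1 in every replicate in TPM and below it in every replicate in counts, with a mean of 13.3 CPM against 24.8. RALYL had 0, 3 and 0 counts, and HNRNPK and PCBP1, which bind C-rich strands, both had 0 counts in every replicate. HNRNPK has 11 listed transcripts and a shared 3′ end, whereas PCBP1 has a single transcript, of which only 26.8% of the exonic bases are free of exons on the other strand. Whether the counting was stranded is not given in the sources used here.

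The study maps i-motifs (iMs) and G4s at promoters, and the starts of the hnRNP genes were therefore searched for sequences that could form them. The search asked for CCC or GGG at least 4 times in longer or equal runs, with 0 to 7 bases between them, from 1 kb upstream to 1 kb downstream of the canonical start, so that a run of 6 counts as a pair of tracts. C-tracts on the strand of the gene could form an iM there and a G4 on the other strand, and G-tracts the reverse. Such a sequence was found at 8 of the 10 genes, beside 78.5% of the expressed protein-coding genes and 60.0% of all expressed genes outside the mitochondrial genome, so this share is near the background. HNRNPA1 and HNRNPU had none. HNRNPF, hardly counted, had 7, the most of the 10 genes, while in the high category HNRNPA3 had 2, HNRNPA0 had 3, HNRNPD had 1 and HNRNPC had 1. HNRNPM, without counts, had 3, as many as HNRNPA0, and HNRNPA2B1 and HNRNPH1 had 4 each. Counted from the start, with upstream negative, the sequence of HNRNPD was the nearest, from -71 to -53. The C-tract sequence of HNRNPF lay from -206 to -179, that of HNRNPC from -416 to -393 and that of HNRNPA0 from 140 to 166. These 4 are printed to show both kinds, the nearest G-tracts and C-tracts from genes of high and of hardly any count, as read on the strand of the gene in hg38 with runs of at least 3 in capitals. All of them lie on the minus strand, at chr4:82374044-82374062, chr10:43409365-43409392, chr14:21269835-21269858 and chr5:137754197-137754223.
HNRNPD: GGGGGataGGGGtGGGGGG
HNRNPF: CCCCCtCCCCCtatCCCCtCCCCtCCCC
HNRNPC: CCCCtcaaCCCtttCCCCgCCCCC
HNRNPA0: CCCtCCCCttCCCtttttCCCttCCCC

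The match is a description of the letters and does not show that a structure forms. CUT&Tag data were not analysed here.

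**Figure D5:**
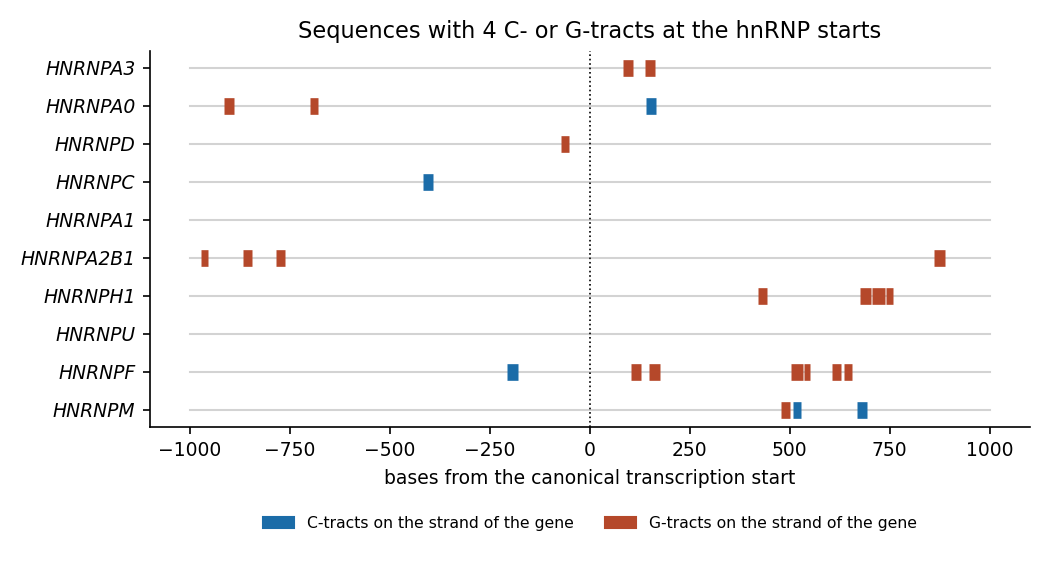
Positions of sequences with at least 4 C-tracts (blue) or G-tracts (red) on the strand of the gene, in bases from the canonical transcription start of each of the 10 hnRNP genes, ordered by mean TPM. HNRNPF has 7 such sequences, HNRNPA1 and HNRNPU have none, and that of HNRNPD lies nearest to a start.

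Several hnRNP genes start close to a gene on the other strand. The share over all genes is not given here, so this is not read as particular to the family. Within 1 kb of the canonical start, CBX5 begins 604 bases from HNRNPA1 and CBX3 begins 999 bases from HNRNPA2B1, and both encode heterochromatin protein 1 family members. The transcripts that held most counts start nearer. HNRNPA1-203 starts at chr12:54280193, beside 54280122 for CBX5, and HNRNPA2B1-208 at chr7:26201301, beside 26201745 for CBX3. CBX5 had 2318, 2291 and 2810 counts and 60.0 ± 8.08 TPM (SD, n = 3), above HNRNPA1 in every replicate. CBX3 had 641, 379 and 730 counts and 96.4 ± 21.6 TPM (SD, n = 3), above HNRNPA2B1 in every replicate. The long non-coding RNA HNRNPD-DT, which begins 294 bases from HNRNPD, had 19.3 ± 4.25 TPM (SD, n = 3), below HNRNPD in every replicate. The other such neighbours, of HNRNPA3, HNRNPU and HNRNPM, were unnamed genes with 1.44 to 2.61 TPM.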

How the data were processed

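The authors extracted total RNA from HEK293T cells in 3 independent biological replicates and prepared libraries with the QuantSeq kit (GEO's labels give the molecule as genomic DNA, but their protocols speak of RNA). For every Ensembl transcript the authors deposited whole read counts, TPM, which divides these counts by length, and the transcript length. The submitters' processing notes name Trimmomatic 0.38.0, HISAT2 2.2.1, featureCounts 2.2.1 and hg38, and strand, multi-match and overlap settings are not given in the sources used here. Libraries held 7019253, 6262175 and 8521624 counts.

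Identifiers without version were joined to GENCODE v44 (223558 of 247541 transcripts), and counts and TPM were summed per gene. Means and SDs are over 3 replicates of 1 condition, so no test was made. The categories follow the quartiles of genes from 1 TPM upwards. Copies were aligned locally (match 2, mismatch -3, gap opening -8, extension -1), and 1 alignment is not reported here. Named genes were the 10 members, the 3 highest and 3 lowest of 19 related genes, transcripts with at least 5% of the counts of a gene, the 5 processed pseudogenes with the most counts and neighbours on the other strand within 1 kb. HNRNPA1L2 and the transcripts HNRNPD-210, HNRNPA2B1-204 and HNRNPM-216 were named after their values were seen. The members and lists were chosen with earlier results of these data known. Alternatives covered the unit, mitochondrial genes, thresholds, windows, definitions of copies and each replicate left out. Functions were tested on simulated data. Python 3.11.15, numpy 2.4.6, pandas 2.3.3, pysam 0.24.0, Biopython 1.88 and matplotlib 3.10.9 were used.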

Additional observations from a re-analysis of the deposited data

How the results depend on the processing

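No groups were compared, so no paired analysis of groups was possible, and genes were not tested against each other within replicates. The summed level of the 10 genes was 1025 TPM, and it was 1393 TPM with mitochondrial genes left out and 3701 CPM without division by length. It ranged from 924 to 1202 TPM when each replicate was left out in turn. The number of genes in the high category was 4, and 7 when quartiles were taken over all genes. The share of counts on processed pseudogenes was 2.35%, 15.9% as a share of TPM and 1.57% when copies were defined by shared 31-base words. The number of genes with a putative iM- or G4-forming sequence was 8, and it was 2 in the window from 250 bases before to 50 after the start and 4 with 5 tracts. The cause was not tested for any of these, apart from the smaller window and the stricter rule for the sequences, which admit less. The remaining alternatives were chosen after seeing the data. The number of genes whose coding transcripts include one with a private 3′ end was 6 with unchanged models and 3 with all listed models. The number whose 3′ end is shared throughout was 6, and it was 7 when the models were restricted to unchanged ones and the longest transcript replaced the canonical one, and 6 with exons of both strands. HNRNPF, HNRNPM and HNRNPH1 had at most 7 counts in a replicate and HNRNPU at most 16, where a count of 0 allows 3. Their levels are therefore uncertain, and the cause of the low counts was not tested.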
